A study of Mus musculus with 6 samples.

Results

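The comparison described here set T cells that had lost the Foxp3 reporter against T cells of the same origin that had kept it. It used 4 of the 6 arrays of the study, 2 of ex-iTreg cells and 2 of stable iTreg cells, chosen by their titles alone. Both populations descended from wild-type regulatory T cells made in culture, of which 500000 were given, together with wild-type natural regulatory T cells (nTreg), to BALB/c mice lacking Rag1, a host with no lymphocytes of its own. After 125 days cells from spleen and mesenteric lymph nodes of 14 hosts were sorted as CD4-stained cells and pooled. Thy1.1 marked the cells of induced origin and EGFP, carried by the Foxp3EGFP reporter allele, marked expression of Foxp3: iTreg cells had both, ex-iTreg cells had Thy1.1 without EGFP, and nTreg cells had EGFP without Thy1.1. All groups therefore share strain, host, transfer and recovery time. The remaining 2 arrays, of nTreg cells, enter the fit and are given as levels to place a gene. The labels number the pools of each group 1 and 2 and do not say that they held cells of separate mice, so each p-value measures only the spread between pools, which may be technical. An exact permutation test of 2 arrays against 2 cannot go below p = 0.33, and tests therefore rest on the spread pooled across probe sets.

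Regulatory T cells restrain other lymphocytes and depend on Foxp3, a transcription factor that holds their gene programme in place. They make little IL-2 themselves and capture it through a receptor that includes the alpha chain Il2ra, and they act through surface molecules such as Ctla4, through cytokines such as Il10 and through activation of TGF-beta. Cells that were made in culture can lose Foxp3 in a lymphopenic or inflamed host and are then called ex-Treg cells, and such cells are known for making the cytokines of helper T cells.

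Values are log2 expression from Affymetrix Mouse430_2 arrays, normalised by the authors, and a difference is the ex-iTreg mean minus the iTreg mean (log2), each from n = 2 arrays, ± the standard error that limma gave. A call is an adjusted p under 0.05 (limma, Benjamini-Hochberg over 23484 tested probe sets). A gene is read from its tested probe set with the highest mean, and a level under 5.48, the filter on low values, is near background. Levels of different genes were not compared, because array levels also depend on the probes.

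The arrays of a group agreed closely, with r = 0.996 between the iTreg arrays and 0.997 between the ex-iTreg arrays across tested probe sets, against 0.970 to 0.971 between the groups. The sorted phenotype itself could not be read: the only Foxp3 probe set, at 3.99 to 4.29 over the 6 arrays, never reached the filter. Cd4 was present at 9.0 and 9.06 in iTreg arrays and 9.07 and 9.31 in ex-iTreg arrays, with a difference of 0.16 ± 0.09 (adjusted p = 0.223, limma), while its other probe set was called higher, at 0.45 (adjusted p = 0.0384, limma). Of 14 tested T cell identity genes 3 rose and 4 fell, against 15.6% and 21% of all tested genes. Their summed level spanned 15.86 to 15.92 (log2) over these 4 arrays. The count of falls was 2 without iTreg pool 2 or without either ex-iTreg pool. Technical measures moved with the groups: the mean of the 27 poly-A control probe sets, which report RNA added before labelling, was 11.37 and 11.35 in iTreg arrays and 8.81 and 8.94 in ex-iTreg arrays. The 3-prime to 5-prime difference of the Gapdh control probe sets, a measure of RNA integrity, was 0.38 and 0.51 against 0.00 and -0.04. Xist, expressed from the inactive X chromosome, read 11.87 and 11.87 in iTreg arrays and 9.42 and 9.12 in ex-iTreg arrays, while the Y-linked gene Eif2s3y read 9.69 and 9.68 in iTreg arrays and 10.41 and 10.46 in ex-iTreg arrays, and neither pair of arrays overlapped. In nTreg arrays Xist read 13.16 and 13.16, so it stepped down from nTreg to iTreg to ex-iTreg arrays. The part of these measures in the results was not tested.

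ex-iTreg arrays were higher for cytokines of effector T cells (Il21, Il17a, Il2), for killer-cell receptors (Klrd1, Klrk1) and for the granule protease Gzmk. They were lower for the integrin chains Itgae and Itgb8, the IL-2 receptor chain Il2ra, the lectin-like receptor Klrg1 and the opioid peptide precursor Penk. Of 11019 tested genes, 36.6% were called, 1716 (15.6%) of them higher and 2315 (21%) lower in ex-iTreg arrays; of single probe sets 37% were called. The median difference over all genes was -0.02. At least 2-fold, 150 (1.36%) were higher and 240 (2.18%) lower, and at least 8-fold, 10 were higher and 12 lower. The arrays of the groups did not overlap for 72.8% of genes, so absence of overlap alone is the common case. Counts of list members given below stand against the shares of 15.6% higher and 21% lower. A count near these shares does not set a list apart from other genes. The counts of rises include genes that passed the filter only through the ex-iTreg arrays, among them Il2, Il21, Klrk1, Klrc1, Il1rl2 and Pou2af1. For such genes a rise was built into the filter. Ccr8, counted among the falls, passed only through the nTreg arrays.

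**Figure D1:**
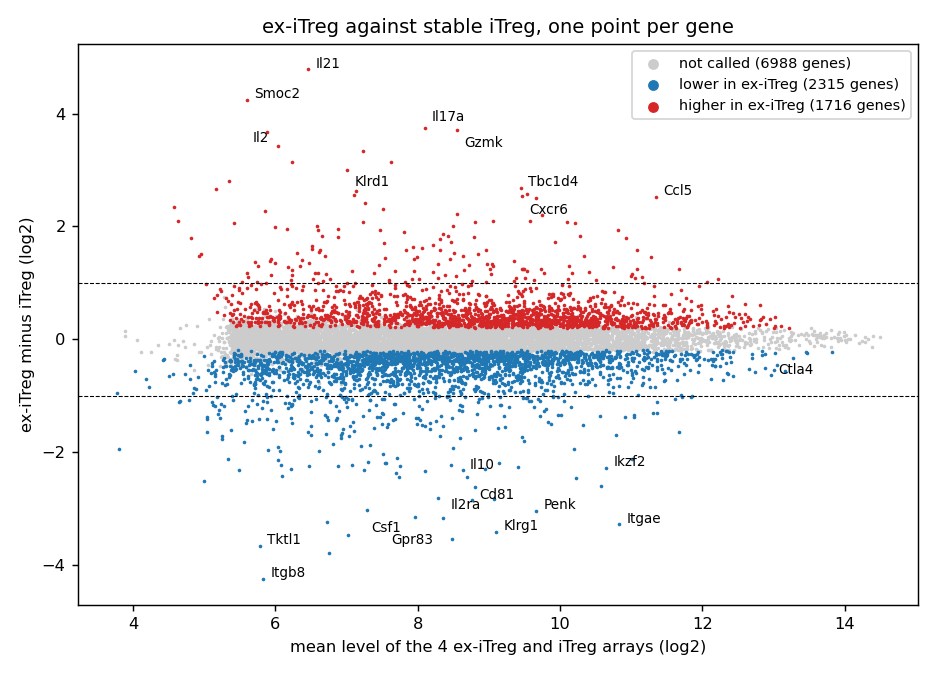
Difference between ex-iTreg and iTreg (log2, vertical axis) against the mean level of the 4 arrays (log2, horizontal axis), one point per tested gene. Red points are the 1716 genes called higher and blue points the 2315 called lower, and the dashed lines mark 2-fold. Most calls lie inside the dashed lines, and Il21, Il17a, Itgb8 and Itgae stand far outside them.

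Several effector cytokines rose, Il2 and Il21 from near background. Il17a, the inflammatory cytokine of Th17 cells, read 6.08 and 6.38 in iTreg arrays and 9.99 and 9.96 in ex-iTreg arrays, a 13.4-fold difference of 3.75 ± 0.10 (adjusted p = 9.42e-06, limma). Il21, which sustains germinal centre and Th17 responses, read 3.96 and 4.19 in iTreg arrays and 8.80 and 8.91 in ex-iTreg arrays. Il2, the growth factor of T cells, read 4.26 and 4.37 in iTreg arrays and 7.70 and 7.81 in ex-iTreg arrays. Both iTreg arrays were near background for Il2 and Il21, as were the nTreg arrays (4.36 and 4.57 and 3.54 and 3.63), so no fold is given, and both ex-iTreg arrays were far above. Ifng, the defining Th1 cytokine, was readable in every array and rose by 1.31 ± 0.07, from 8.08 and 8.05 in iTreg arrays to 9.32 and 9.44 in ex-iTreg arrays.

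Other cytokines moved down. Il10, which limits inflammation, read 9.76 and 9.83 in iTreg arrays and 7.45 and 7.49 in ex-iTreg arrays and fell by 2.33 ± 0.08. Ebi3, a shared subunit of IL-27 and IL-35, read 9.19 and 9.35 in iTreg arrays and 6.93 and 6.94 in ex-iTreg arrays, and Csf1, the macrophage growth factor, 9.57 and 9.51 in iTreg arrays and 6.38 and 6.38 in ex-iTreg arrays. Penk, the enkephalin precursor, read 11.19 and 11.19 in iTreg arrays and 8.09 and 8.19 in ex-iTreg arrays. Lta, lymphotoxin alpha, fell by 1.5 ± 0.08, and Tgfb1 and Tnf fell by 0.51 ± 0.12 and 0.27 ± 0.08. Of 15 helper cytokine genes that passed the filter out of 27, 4 rose and 9 fell, with a median of -0.27. Il4, Csf2 and Il13 were among the 9 members under the filter and were not tested. Il4 read 4.13 and 4.24 in iTreg arrays and 5.25 and 4.94 in ex-iTreg arrays. Csf2 read 4.96 and 4.65 in iTreg arrays and 5.54 and 5.45 in ex-iTreg arrays, so both read higher there, though near background. Among chemokines, Ccl5 rose by 2.52 ± 0.06, Ccl4 by 1.14 ± 0.07 and Ccl3 by 0.80 ± 0.06, attractants made by activated T and NK cells. Xcl1, another of these, was called higher, at 5.15 and 5.14 in iTreg arrays and 6.08 and 6.04 in ex-iTreg arrays, the former under the filter. Ccl1 fell, at 6.56 and 6.23 in iTreg arrays and 5.27 and 5.46 in ex-iTreg arrays, the latter under the filter, and Cxcl10 fell by 0.32 ± 0.10. Of 12 tested chemokines 4 rose and 2 fell, the latter count being 1 without iTreg pool 2 or without either ex-iTreg pool.

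The reference promoters of the 3 cytokine genes with the widest rise, and of the receptor chain gene Il2ra that fell, are shown so that their start regions can be compared. Each runs from 250 bases before to 50 bases after the annotated start, 5′ to 3′ on the gene's own strand, from RefSeq on GRCm38.p6. Capitals mark matches, on either strand, to TGANTCA (AP-1), TTCNNNGAA (STAT) and the core promoter box TATAAA, and to a kappaB motif. Il2 lies at chr3:37125905-37126204 on the minus strand, Il21 at chr3:37232587-37232886 on the minus strand, Il17a at chr1:20730655-20730954 on the plus strand and Il2ra at chr2:11642542-11642841 on the plus strand.
Il2: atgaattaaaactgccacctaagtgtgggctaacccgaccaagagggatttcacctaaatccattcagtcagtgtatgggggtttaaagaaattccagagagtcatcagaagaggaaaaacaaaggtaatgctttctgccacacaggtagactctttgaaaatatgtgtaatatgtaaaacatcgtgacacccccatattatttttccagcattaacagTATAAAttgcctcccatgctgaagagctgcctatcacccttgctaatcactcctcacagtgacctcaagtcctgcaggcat
Il21: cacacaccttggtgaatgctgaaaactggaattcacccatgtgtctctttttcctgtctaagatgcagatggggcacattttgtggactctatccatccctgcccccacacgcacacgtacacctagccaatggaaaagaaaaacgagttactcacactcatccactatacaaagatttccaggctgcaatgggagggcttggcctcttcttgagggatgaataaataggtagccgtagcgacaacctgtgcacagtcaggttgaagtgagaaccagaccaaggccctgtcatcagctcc
Il17a: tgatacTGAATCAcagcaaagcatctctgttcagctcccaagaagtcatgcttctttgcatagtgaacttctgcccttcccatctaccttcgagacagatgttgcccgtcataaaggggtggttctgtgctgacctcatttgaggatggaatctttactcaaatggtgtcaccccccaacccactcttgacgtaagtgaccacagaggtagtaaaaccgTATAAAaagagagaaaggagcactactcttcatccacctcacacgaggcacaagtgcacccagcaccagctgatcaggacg
Il2ra: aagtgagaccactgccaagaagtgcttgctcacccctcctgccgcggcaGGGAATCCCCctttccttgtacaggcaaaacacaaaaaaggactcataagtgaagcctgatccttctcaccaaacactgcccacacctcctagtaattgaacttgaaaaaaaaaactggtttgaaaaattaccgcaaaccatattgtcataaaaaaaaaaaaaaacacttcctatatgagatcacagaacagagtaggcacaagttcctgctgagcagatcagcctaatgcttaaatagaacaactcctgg
Il2 and Il17a each held a TATAAA beginning at position -31 relative to the start. Il17a also held an AP-1 match, TGAATCA, at position -244, and Il2ra a kappaB match, GGGAATCCCC, at -201. Il21 held none of these 4 motifs in the window. Over 32851 promoters of the table, 7.81% held the AP-1 motif, 8.3% the STAT motif, 20.7% the kappaB motif and 13.6% the core promoter box. Of 46 genes, in each direction the 15 largest differences between readable levels and the 8 largest with 1 group under the filter, 36 had a promoter in the table. The AP-1 motif was in 3 of 19 promoters of the genes that rose and 1 of 18 of those that fell, the STAT motif in 2 and 0, the kappaB motif in 5 and 4, and the core promoter box in 3 and 4. The core of the NFAT motif, GGAAA, which is not in capitals, was in 10 and 10, or 52.6% and 55.6%, against 61.3% of all promoters. These matches describe letters only.

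Il2 and Il21 are consecutive protein-coding genes in the RefSeq order. Of their neighbours, Cetn4, next to Il21, differed by 0.20 (adjusted p = 0.175, limma) and Bbs12 by 0.11 (adjusted p = 0.495, limma). On the far side of Il2, Adad1 was not tested, and 4932438A13Rik, the gene beyond it, rose by 0.50 (adjusted p = 0.00543, limma). The genes next to Il2ra are Il15ra, the IL-15 receptor alpha chain, which fell by 0.70 (adjusted p = 0.00623, limma), and Rbm17, which rose by 0.25 (adjusted p = 0.0208, limma). Mcm3, near Il17a, differed by -0.26 (adjusted p = 0.0213, limma).

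The receiving side of the IL-2 pathway moved opposite to Il2 itself. Il2ra, the chain that gives the receptor its high affinity, read 9.95 and 9.95 in iTreg arrays and 6.69 and 6.84 in ex-iTreg arrays, 9.04-fold lower in ex-iTreg arrays (adjusted p = 5.98e-06, limma), with nTreg arrays at 10.06 and 9.98. The pairs did not overlap, and the iTreg arrays lay close to the nTreg ones. Il2rb, the signalling chain shared with IL-15, read 9.68 and 9.82 in iTreg arrays and 8.64 and 8.55 in ex-iTreg arrays and fell by 1.16 ± 0.09. Socs2 and Cish, inhibitors induced by STAT5 signalling, fell by 1.70 ± 0.07 and 1.35 ± 0.07, and Socs1, Pim1, Osm and Stat5b fell by 0.80 ± 0.10, 0.60 ± 0.06, 0.76 ± 0.07 and 0.33 ± 0.06. Jak1, Jak3, Stat5a, Socs3 and Bcl2 did not pass the test, with Stat5a at 0.02 ± 0.08 and Jak3 at -0.17 ± 0.07. Il7r and Il21r, receptor chains for IL-7 and IL-21, rose by 0.63 ± 0.07 and 0.52 ± 0.11. Of 18 tested members of this axis 10 fell and 3 rose, with a median of -0.33.

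Genes that define regulatory T cells were lower in ex-iTreg arrays as a group: of 29 tested members of the 32-gene signature, 25 fell and 2 rose, with a median of -1.69. This list was assembled from genes known to mark such cells, and members were chosen with earlier results of these data known. Itgae, the CD103 chain that binds E-cadherin on epithelium, read 12.49 and 12.45 in iTreg arrays and 9.14 and 9.23 in ex-iTreg arrays, with nTreg arrays at 12.80 and 12.75. Klrg1, a marker of terminally differentiated T cells, read 10.80 and 10.82 in iTreg arrays and 7.43 and 7.35 in ex-iTreg arrays. With nTreg arrays at 12.09 and 12.10, its level stepped down from nTreg to iTreg and again to ex-iTreg, an order that Xist shared. Gpr83, an orphan receptor known from regulatory T cells, read 10.26 and 10.25 in iTreg arrays and 6.66 and 6.78 in ex-iTreg arrays. Nrp1, a semaphorin receptor, read 11.47 and 11.44 in iTreg arrays and 8.79 and 9.20 in ex-iTreg arrays, with the widest gap between the ex-iTreg pools among these genes. Entpd1, the CD39 ectoenzyme that degrades ATP, fell by 1.70 ± 0.08, while Nt5e, the CD73 enzyme that completes adenosine production, differed by 0.16 ± 0.08 (adjusted p = 0.166, limma). Swap70, Fgl2 and Capg fell by 1.69 ± 0.08, 1.62 ± 0.11 and 1.31 ± 0.07. Icos did not pass (0.10 ± 0.06, adjusted p = 0.259, limma), and Ctla4, the inhibitory receptor, fell by 0.64 ± 0.07 from a high level, 13.27 and 13.30 in iTreg arrays and 12.57 and 12.72 in ex-iTreg arrays. Plagl1, a zinc finger factor, and Nebl, an actin-binding protein, were the members that rose, by 1.33 ± 0.06 and 2.00 ± 0.10.

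TGF-beta genes moved in both directions. Itgb8, whose integrin releases active TGF-beta, read 7.95 and 7.96 in iTreg arrays and 3.59 and 3.81 in ex-iTreg arrays, the ex-iTreg arrays being near background, and its partner Itgav fell by 0.71 ± 0.08. The type I receptor Tgfbr1 read 11.13 and 11.06 in iTreg arrays and 9.53 and 9.60 in ex-iTreg arrays and fell by 1.53 ± 0.07. The type II receptor Tgfbr2 rose by 0.94 ± 0.06, from 11.49 and 11.49 in iTreg arrays to 12.42 and 12.44 in ex-iTreg arrays, and the co-receptor Tgfbr3 by 2.57 ± 0.08, from 8.18 and 8.32 in iTreg arrays to 10.86 and 10.79 in ex-iTreg arrays. Smad7, an inhibitor of the pathway, rose by 0.46 ± 0.08, and Smad3, a signal carrier, fell by 0.26 ± 0.06. In all 7 of 14 tested members rose and 5 fell (median 0.19). Without iTreg pool 1 or ex-iTreg pool 2 the counts were 4 and 3, and without ex-iTreg pool 1 the count of falls was 3.

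**Figure D2:**
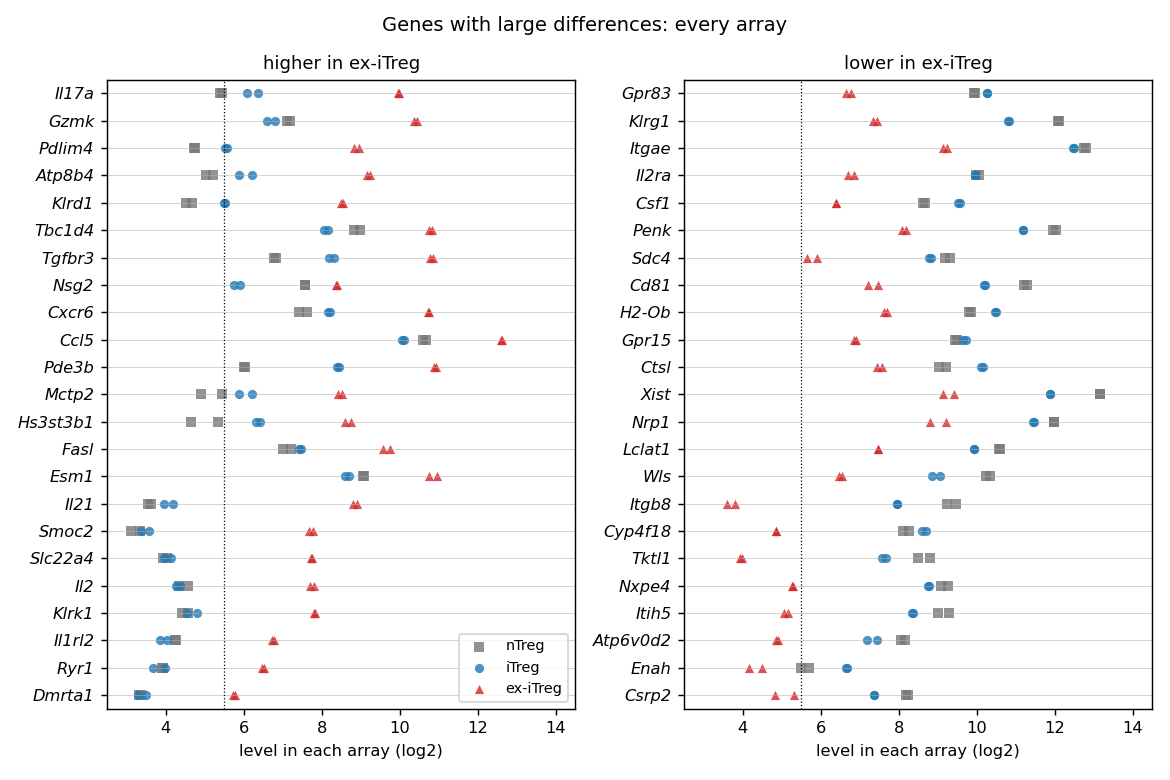
Level in each of the 6 arrays (log2, horizontal axis) of 23 genes that rose (left) and 23 that fell (right), in each direction the 15 largest differences between readable levels and the 8 largest with the iTreg or ex-iTreg mean under the filter, squares for nTreg, circles for iTreg and triangles for ex-iTreg. The dotted line is the filter level of 5.48. Genes were chosen among calls without overlap of the iTreg and ex-iTreg arrays, so triangles lie apart from circles in every row by choice. In the last 8 rows, also by choice, the iTreg mean (left) or the ex-iTreg mean (right) is below the line. The nTreg squares of those rows on the left are below it too.

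Among the 15 largest rises between readable levels were genes outside the cytokine and receptor families. Tbc1d4, which controls glucose transporter traffic, read 8.15 and 8.07 in iTreg arrays and 10.76 and 10.83 in ex-iTreg arrays, and Nsg2, a neuronal endosomal protein, 5.89 and 5.75 in iTreg arrays and 8.37 and 8.40 in ex-iTreg arrays. Pdlim4, a PDZ and LIM domain protein, and Atp8b4, a lipid flippase, rose by 3.34 ± 0.07 and 3.15 ± 0.12. Esm1, a secreted proteoglycan, read 8.69 and 8.61 in iTreg arrays and 10.74 and 10.95 in ex-iTreg arrays, and Hs3st3b1, a heparan sulfate sulfotransferase, 6.43 and 6.31 in iTreg arrays and 8.59 and 8.75 in ex-iTreg arrays; another probe set of Hs3st3b1 rose by 0.69 and the remaining one differed by 0.06 (adjusted p = 0.804, limma). Mctp2, a calcium-binding membrane protein, rose by 2.42 ± 0.19. Those read from background in iTreg arrays included Smoc2, a secreted matrix protein, at 3.37 and 3.59 in iTreg arrays and 7.67 and 7.77 in ex-iTreg arrays, Slc22a4, an ergothioneine and carnitine transporter, at 3.96 and 4.14 in iTreg arrays and 7.74 and 7.71 in ex-iTreg arrays, and Ryr1, a calcium release channel, at 3.68 and 3.99 in iTreg arrays and 6.53 and 6.48 in ex-iTreg arrays. Il1rl2, the IL-36 receptor, and Dmrta1 completed them. Adjusted p-values were at most 0.000543 over the 15 readable rises (limma). These were chosen as the largest among called genes, so a small p-value follows from the choice. The 8 from background passed the filter only through the ex-iTreg arrays, and no p-value is given for them.

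Among the 15 largest falls between readable levels were Cd81, a tetraspanin, at 10.19 and 10.21 in iTreg arrays and 7.48 and 7.2 in ex-iTreg arrays, and Sdc4, a heparan sulfate proteoglycan, at 8.84 and 8.78 in iTreg arrays and 5.90 and 5.66 in ex-iTreg arrays. Gpr15, a receptor that directs T cells to the large intestine, read 9.73 and 9.65 in iTreg arrays and 6.85 and 6.90 in ex-iTreg arrays. H2-Ob, a chain of the MHC class II modulator H2-O, read 10.47 and 10.50 in iTreg arrays and 7.62 and 7.69 in ex-iTreg arrays, and Ctsl, a lysosomal protease, 10.14 and 10.10 in iTreg arrays and 7.43 and 7.58 in ex-iTreg arrays. Wls, needed for Wnt secretion, and Lclat1, a lipid acyltransferase, fell, at -2.45 ± 0.09 and -2.45 ± 0.06. Those that reached background in ex-iTreg arrays included Cyp4f18, a fatty acid hydroxylase (8.70 and 8.59 in iTreg arrays and 4.85 and 4.85 in ex-iTreg arrays), and Tktl1, a transketolase-like protein (7.57 and 7.67 in iTreg arrays and 3.98 and 3.94 in ex-iTreg arrays). Nxpe4, Itih5, Atp6v0d2 and Csrp2 followed with ex-iTreg arrays between 4.83 and 5.31. Enah, a regulator of actin, was also in this set, but on its second probe set the difference was -0.20 (limma, adjusted p = 0.342). The 15 readable falls had 13 other tested probe sets, all called in the same direction, with adjusted p at most 7.65e-05 for the probe sets used (limma). These falls were also chosen among called genes, so the small p-value follows from the choice.

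Transcription regulators moved in both directions. Ikzf2, which encodes Helios, read 11.81 and 11.77 in iTreg arrays and 9.53 and 9.48 in ex-iTreg arrays, and its relatives Ikzf4 (Eos) and Ikzf3 (Aiolos) fell by 2.23 ± 0.07 and 1.34 ± 0.08. Ikzf1 (Ikaros) rose by 0.37 ± 0.06, and Ikzf5 differed by 0.23 ± 0.10 (adjusted p = 0.135, limma). Prdm1, the Blimp-1 repressor of effector regulatory cells, read 8.78 and 8.75 in iTreg arrays and 6.72 and 6.59 in ex-iTreg arrays, and Bcl6, the follicular helper factor with which it is mutually antagonistic, 7.69 and 7.80 in iTreg arrays and 9.30 and 9.26 in ex-iTreg arrays. Id2 rose by 1.25 ± 0.08 and Id3 fell by 1.30 ± 0.09, both being inhibitors of E proteins. Nfil3, Irf4, Irf8 and Gata3 fell by 1.27 ± 0.06, 0.82 ± 0.07, 1.56 ± 0.08 and 0.78 ± 0.08. Eomes, a T-box factor of memory and killer cells, read 5.94 and 6.02 in iTreg arrays and 7.95 and 7.64 in ex-iTreg arrays, and its relative Tbx21 rose by 0.46 ± 0.09, a call that did not hold when iTreg pool 1 was left out (limma adjusted p of 0.0535) or when ex-iTreg pool 2 was (0.0672). Tox2 rose by 1.84 ± 0.09 and Rora, a Th17 regulator, by 0.53 ± 0.06. Pou2af1, a B cell coactivator also found in follicular helper cells, read 5.08 and 4.94 in iTreg arrays and 6.99 and 7.0 in ex-iTreg arrays. It passed the filter only through the ex-iTreg arrays, so its call adds nothing to these levels. Maf, Batf, Ahr, Stat4, Hif1a, Cbfb and Tox did not pass. Of 21 helper lineage factors tested, 6 rose and 8 fell, with a median of -0.16.

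Several regulators that rose were also higher in nTreg arrays than in iTreg arrays. Nr4a2, Nr4a3 and Fosl2, induced by receptor signalling, rose by 1.18 ± 0.08, 0.87 ± 0.06 and 0.63 ± 0.06, and ex-iTreg arrays differed from nTreg arrays by -0.31, 0.08 and -0.03 (adjusted p = 0.0257, 0.325 and 0.78, limma), so Nr4a2 stayed below its nTreg level. Of 4 other probe sets of Nr4a2, 3 were called higher. The other probe sets of Nr4a3 and Fosl2 were not called, at 0.16 and 0.39 (adjusted p = 0.524 and 0.0724, limma). Klf4 read 10.50 and 10.41 in nTreg arrays and 9.66 and 9.64 in iTreg arrays and 10.54 and 10.64 in ex-iTreg arrays. Hey1, a Notch target, and Epas1, a hypoxia factor, read 9.79 and 9.59 and 8.71 and 8.72 in nTreg arrays, against 7.67 and 7.55 in iTreg arrays and 9.45 and 9.20 in ex-iTreg arrays and 7.37 and 7.40 in iTreg arrays and 9.03 and 9.08 in ex-iTreg arrays; these 2 were picked out after their values were seen. iTreg arrays were the lowest of the 3 groups for these 6 genes. Of 19 activation-induced factors 7 rose and 2 fell (median 0.10), while Fos, Fosb, Jun, Junb, Egr1 and Nr4a1 did not pass. The count of falls was 1 without iTreg pool 2 or without either ex-iTreg pool. The 2 comparisons named here share the ex-iTreg arrays.

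**Figure D3:**
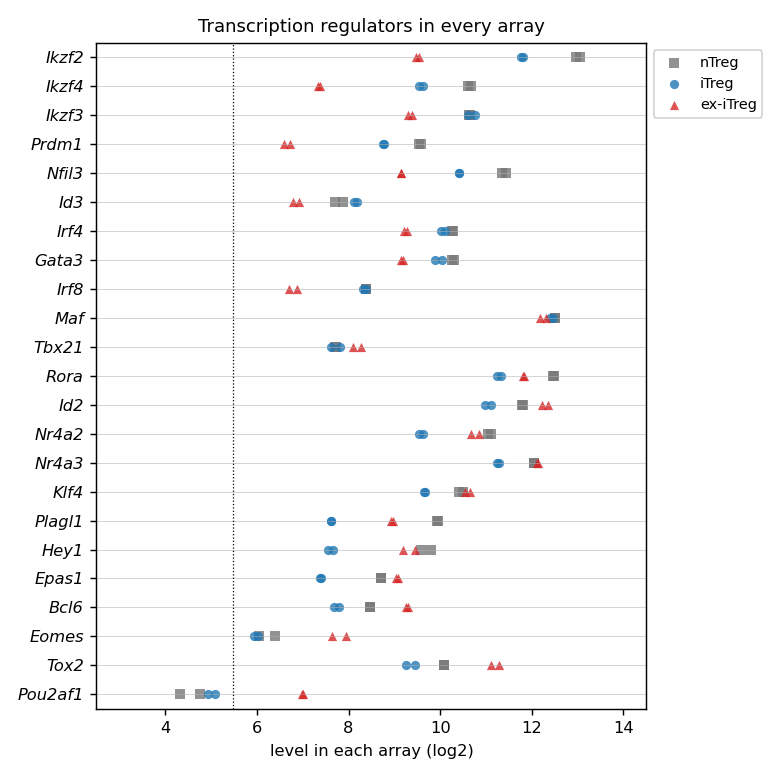
Level in each array (log2, horizontal axis) of 23 transcription regulators, squares for nTreg, circles for iTreg and triangles for ex-iTreg, with the filter level dotted. Ikzf2 steps down from nTreg to iTreg to ex-iTreg, while Nr4a3 and Klf4 triangles sit beside the squares and to the right of the circles.

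Genes of the naive and stem-like state differed by less than 2-fold. Satb1, Actn1, Slamf6 and S1pr1 rose by 0.33 ± 0.06, 0.29 ± 0.06, 0.23 ± 0.06 and 0.50 ± 0.09, and Dapl1 by 0.79 ± 0.19. Foxo1 and Bach2, factors of quiescence, fell by 0.37 ± 0.08 and 0.27 ± 0.08. Lef1 and Ccr7, whose product guides T cells into lymph nodes, differed by -0.02 ± 0.09 and -0.17 ± 0.07, and neither passed (adjusted p = 0.871 and 0.09, limma). Of 16 tested members 8 rose and 3 fell, none by 2-fold (median 0.26). The rises numbered 5 without any one of the 4 arrays, and the falls 1 without iTreg pool 2 and 0 without ex-iTreg pool 2.

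Receptors and granule genes of killer cells rose in part. Klrd1, the CD94 chain, read 5.5 and 5.52 in iTreg arrays and 8.49 and 8.54 in ex-iTreg arrays, and its partner Klrc1 (NKG2A) 4.0 and 3.84 in iTreg arrays and 5.67 and 5.77 in ex-iTreg arrays. Klrk1, the activating receptor NKG2D, read 4.80 and 4.54 in iTreg arrays and 7.83 and 7.80 in ex-iTreg arrays. Klrd1, Klrk1 and Klrc1 lie close together in the RefSeq order, and of the lectin-like receptors that passed the filter, 7 of 17, these 3 rose and Klrg1 fell. Gzmk rose by 3.70 ± 0.09, from 6.80 and 6.60 in iTreg arrays to 10.43 and 10.38 in ex-iTreg arrays, and Nkg7, a granule membrane protein, by 1.39 ± 0.06. Fasl, a death ligand, read 7.47 and 7.41 in iTreg arrays and 9.76 and 9.56 in ex-iTreg arrays. Gzmb, the main granzyme of cytotoxic cells, fell by 1.5 ± 0.07, from 10.65 and 10.59 in iTreg arrays to 9.15 and 9.09 in ex-iTreg arrays, and perforin, Prf1, by 0.28 ± 0.07. Gzma differed by -0.09 ± 0.07 and Gzmm by 0.14 ± 0.09 (adjusted p = 0.392 and 0.263, limma). Of 13 tested granule genes 4 rose and 3 fell, the falls numbering 1 without either iTreg pool or without ex-iTreg pool 2. Of 9 tested CD8 T and NK cell markers, a list that shares Klrd1, Klrk1, Klrc1, Nkg7, Prf1 and Gzmm with these families, 6 rose, 5 of them at least 2-fold, and 2 fell (median 1.39). The falls numbered 1 without either iTreg pool or ex-iTreg pool 2. The summed level of this list was 9.79 and 9.82 in iTreg arrays against 11.14 and 11.11 in ex-iTreg arrays (log2). The sum includes the same killer-cell genes that rose, so it is no separate measure of CD8 T or NK cells. The part of such cells in these rises was not tested. Of the CD8 chains, Cd8a rose by 0.33 ± 0.09, Cd8b1 fell, at 5.94 and 6.10 in iTreg arrays and 5.18 and 5.35 in ex-iTreg arrays, the latter under the filter, and the NK cell gene Ncr1 stayed under the filter, at 4.91 to 5.47 in the 6 arrays.

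Costimulatory receptors of the TNF family fell without exception among those called: of 13 tested, 9 fell and 0 rose (median -0.63). Tnfrsf9 (4-1BB) read 8.61 and 8.68 in iTreg arrays and 6.37 and 6.52 in ex-iTreg arrays, Tnfrsf18 (GITR) 11.98 and 11.95 in iTreg arrays and 10.67 and 10.63 in ex-iTreg arrays and Tnfrsf4 (OX40) 11.91 and 11.95 in iTreg arrays and 10.87 and 10.76 in ex-iTreg arrays. Cd27, Tnfrsf13b and Tnfrsf1b fell by 1.34 ± 0.07, 1.19 ± 0.07 and 0.76 ± 0.07. Tnfrsf25, Tnfrsf13c, Fas and Ltbr did not pass. Their ligands were divided, with Tnfsf8 (CD30 ligand) up by 2.08 ± 0.06 and Tnfsf14 (LIGHT) by 1.94 ± 0.07, and with Tnfsf10 (TRAIL) down, at -0.86 ± 0.09. Of 11 ligands 4 rose and 4 fell, the falls numbering 2 without iTreg pool 2 or without either ex-iTreg pool.

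Ligands of the CD28 family fell. Cd80 read 6.32 and 6.47 in iTreg arrays and 4.31 and 4.23 in ex-iTreg arrays, Cd86 7.35 and 7.31 in iTreg arrays and 6.20 and 6.23 in ex-iTreg arrays, Pdcd1lg2 (PD-L2) 7.96 and 7.89 in iTreg arrays and 6.30 and 6.28 in ex-iTreg arrays and Cd274 (PD-L1) 10.51 and 10.51 in iTreg arrays and 9.79 and 9.78 in ex-iTreg arrays. Antigen-presenting cells also express these 4 ligands, and myeloid and MHC class II markers fell in the same arrays, 15 of 18 and 8 of 8 tested; their part in these falls was not tested. Of the receptors, Lag3 fell by 0.80 ± 0.08, Cd28 rose by 0.45 ± 0.06 and Btla by 0.75 ± 0.07. Pdcd1 (PD-1) differed by -0.18 ± 0.06 (adjusted p = 0.0729, limma), with iTreg and ex-iTreg arrays between 6.72 and 6.95 and nTreg arrays at 8.77 and 8.74. Of 15 tested checkpoint and costimulatory genes 4 rose and 7 fell.

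Homing receptors mostly fell. Ccr9, which with Gpr15 directs cells to the gut, read 9.13 and 9.13 in iTreg arrays and 7.5 and 7.66 in ex-iTreg arrays, and Ccr2 and Cxcr4 fell by 0.96 ± 0.09 and 0.38 ± 0.06. Ptger4, a prostaglandin E2 receptor, fell by 0.73 ± 0.07, and Cxcr3, a Th1 cell receptor, by 0.51 ± 0.07. Cxcr6, a receptor of tissue-resident T cells, read 8.17 and 8.23 in iTreg arrays and 10.71 and 10.76 in ex-iTreg arrays, and Gpr183, which responds to oxysterols, 10.10 and 10.11 in iTreg arrays and 11.38 and 11.39 in ex-iTreg arrays. Cxcr5, the follicle-homing receptor, rose by 0.61 ± 0.07. In all 10 of 17 tested members fell and 4 rose (median -0.29), the falls numbering 6 without ex-iTreg pool 1. Among other integrins Itga6 and Itgb7 fell by 0.84 ± 0.07 and 0.55 ± 0.06, and Itgb1 and Itgb3 rose by 0.80 ± 0.08 and 0.45 ± 0.10. Itgb5 rose by 0.70 ± 0.06 on the probe set used, but its other probe set fell by 0.30 (adjusted p = 0.0125, limma). Itgal and Itgb2, the LFA-1 chains, did not pass. Of 11 tested integrin chains 4 rose and 5 fell, the rises numbering 2 without iTreg pool 1 or either ex-iTreg pool.

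Interleukin receptor chains moved in both directions. Il10ra and Il10rb, the IL-10 receptor, fell by 1.5 ± 0.08 and 0.68 ± 0.06, Il27ra by 0.48 ± 0.07 and Il12rb1 by 1.38 ± 0.08. Il17re, the IL-17C receptor, read 7.34 and 7.51 in iTreg arrays and 9.34 and 9.24 in ex-iTreg arrays, and the IL-1 receptor Il1r1 and the IL-18 receptor Il18r1 rose by 0.94 ± 0.11 and 0.58 ± 0.06. Ifngr2 rose by 0.61 ± 0.06, and Il1r2 was also called higher. The chains Il1rap, Il18rap and Ifngr1 did not pass. Of 17 tested receptors 8 rose and 5 fell (median 0.25), with 5 rises without iTreg pool 1 or ex-iTreg pool 1.

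Phosphodiesterases, which degrade cyclic nucleotides, included several clear rises. Pde3b, a target that Foxp3 is known to repress, read 8.44 and 8.38 in iTreg arrays and 10.89 and 10.93 in ex-iTreg arrays, with nTreg arrays at 6.03 and 6.01, so it stepped up from nTreg to iTreg to ex-iTreg. Pde7a rose by 2.09 ± 0.08, on all 6 of its other probe sets as well, Pde5a by 1.57 ± 0.11 and Pde4d by 1.09 ± 0.08. Pde4b rose by 0.28 ± 0.06, and Pde8a fell by 0.30 ± 0.08. Of 15 tested members of the cAMP pathway 7 rose and 2 fell; the falls numbered 1 without iTreg pool 1, and 0 without iTreg pool 2 or without either ex-iTreg pool.

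Several targets of NF-kappaB and most tested interferon response genes fell. Icam1, Bcl3 and Cd83 fell by 1.58 ± 0.08, 1.55 ± 0.08 and 0.96 ± 0.07, and the subunits Nfkb2 and Relb by 0.41 ± 0.08 and 0.30 ± 0.09. Rel, Rela and Nfkbid did not pass, and neither did the targets Tnfaip3, Birc3 and Bcl2l1. In all 10 of 16 fell and 0 rose, or 5 without ex-iTreg pool 2. The guanylate-binding proteins Gbp3, Gbp7 and Gbp6, induced by interferon gamma, fell, at -1.65 ± 0.06, -0.99 ± 0.07 and -0.98 ± 0.07, although Ifng itself rose. Irf1, their regulator, read 12.35 and 12.36 in iTreg arrays and 11.33 and 11.32 in ex-iTreg arrays. Mx1, an antiviral protein, rose by 0.80 ± 0.18 and was the single rise among 21 interferon response genes, of which 15 fell (median -0.66). That rise was lost without iTreg pool 2 or ex-iTreg pool 2.

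Metabolic and division genes moved in both directions. Slc2a3, the glucose transporter GLUT3, fell by 2.12 ± 0.06, from 12.09 and 12.06 in iTreg arrays to 9.93 and 9.97 in ex-iTreg arrays, while Slc2a1 (GLUT1) did not pass (-0.17 ± 0.06). Of 14 glycolysis genes 2 rose, Pfkp and Hk2 (0.66 ± 0.07 and 0.73 ± 0.10), near the 15.6% of all tested genes called higher. A further 5 of the 14 fell, against 21% of all genes, among them Aldoc and Pkm (-1.07 ± 0.10 and -0.53 ± 0.07). The falls numbered 2 without either iTreg pool or ex-iTreg pool 2, and 3 without ex-iTreg pool 1. Ldha differed by 0.08 ± 0.07 (adjusted p = 0.383, limma). Of 21 tested proliferation genes 10 fell and 2 rose, none by 2-fold, with Ube2c and Ccnb2, mitotic genes, at -0.91 ± 0.07 and -0.92 ± 0.08, Mki67 at -0.38 ± 0.07 and Pcna up by 0.38 ± 0.07. The rises numbered 1 without any one of the 4 arrays. Lgals3, galectin-3, rose by 1.45 ± 0.07, while S100a4 and Anxa4 fell by 0.56 ± 0.06 and 1.15 ± 0.09. Bid, a death promoter of the BCL2 family, fell by 1.27 ± 0.07, but on a second probe set the difference was 0.08 (limma, adjusted p = 0.49).

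Transcripts that T cells do not usually make were lower in ex-iTreg arrays than in iTreg arrays. Of 18 tested myeloid markers 15 fell and 0 rose (median -0.66), Csf1r reading 10.22 and 10.20 in iTreg arrays and 9.53 and 9.46 in ex-iTreg arrays and C1qa 9.0 and 8.83 in iTreg arrays and 7.83 and 8.0 in ex-iTreg arrays, with nTreg arrays at 8.99 and 9.0 and 7.42 and 7.14. Of 7 neutrophil markers all fell, Ngp by 0.94 ± 0.08 and S100a9 by 0.47 ± 0.08. The summed level of the myeloid list was 13.93 in both iTreg arrays and 13.40 and 13.42 in ex-iTreg arrays, and that of the neutrophil list 13.23 and 13.33 against 12.69 and 12.67 (log2). Of 8 tested MHC class II and B cell markers all fell, Cd79b from 6.38 and 6.56 in iTreg arrays to 4.50 and 4.80 in ex-iTreg arrays, while the B cell genes Cd79a and Pax5 lay between 3.99 and 5.06 in all 6 arrays. Ighm fell on the probe set used (-1.06 ± 0.06) and on another (-1.77), rose by 0.21 on a further one, and differed by 0.29 and 0.11 on the rest (adjusted p = 0.127 and 0.565, limma). Erythroid markers fell in 4 of 4 tested cases (median -0.66), and of 3 tested stromal and endothelial markers 1 fell, Pecam1, whose call did not survive leaving out any single array of the 4. In pooled cells fewer cells of a type and less RNA per cell cannot be told apart, and the part of these transcripts in the other falls was not tested. Among the largest falls, Ctsl and Axl, which macrophages also express, fell, at -2.62 ± 0.09 and -2.32 ± 0.08; Axl was picked out after its values were seen.

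**Figure D4:**
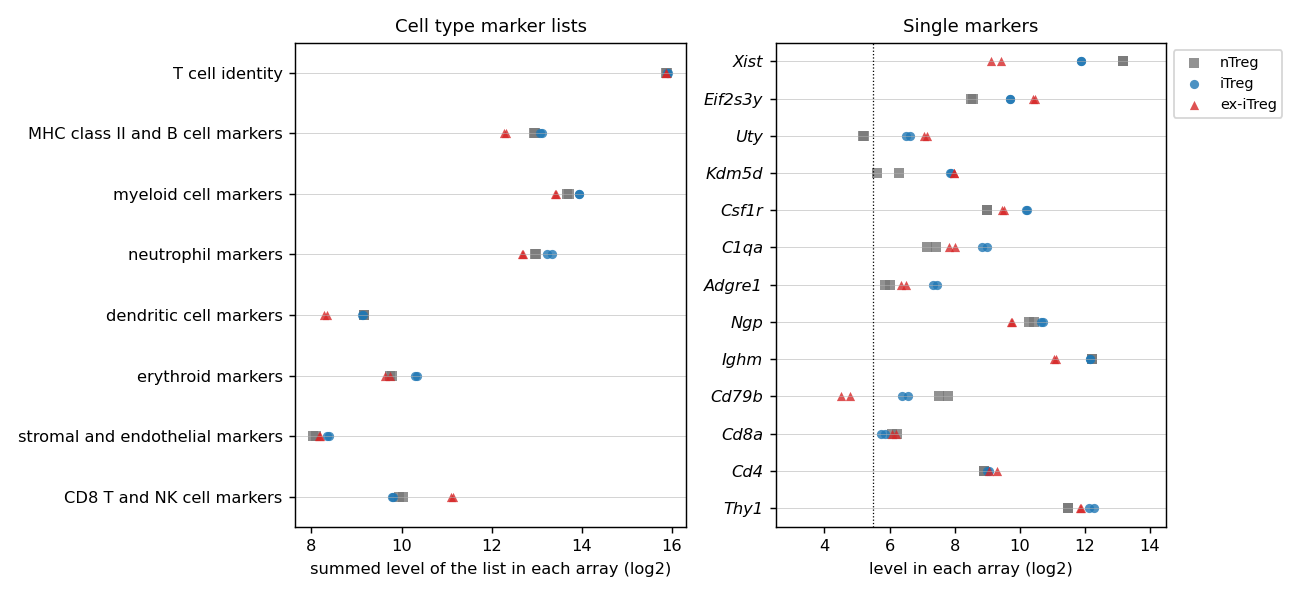
Left, summed level of each cell type marker list in each array (log2 of the sum of linear levels, horizontal axis). Right, single markers and sex-linked genes in each array (log2), squares for nTreg, circles for iTreg and triangles for ex-iTreg, with the filter level dotted. T cell identity is level across groups. By summed level the myeloid, neutrophil and B cell lists are lowest in ex-iTreg arrays. Over single myeloid genes, however, the median of ex-iTreg minus nTreg was 0.17. Xist falls while Eif2s3y rises from iTreg to ex-iTreg arrays.

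Lists of helper subsets were compared side by side. Of 14 tested Th1 cell genes 9 rose and 3 fell (median 0.69), and of 10 Th17 cell genes 5 rose and 1, Stat3, fell (median 0.31). Of 12 follicular helper genes 7 rose, including Sh2d1a at 0.32 ± 0.07, and Cd200 alone fell (median 0.28), a call lost without iTreg pool 2 or either ex-iTreg pool. Of 6 Th2 cell genes 0 rose and 5 fell (median -0.44), the falls numbering 3 without either iTreg pool and 2 without either ex-iTreg pool. The Th2 cytokine genes Il4, Il5 and Il13 were under the filter and not tested, so the Th2 counts leave them out. Il4 read higher in ex-iTreg arrays, near background, as given above. Of the Th2 falls, Ccr8 lay under the filter in both groups, at 5.14 and 5.14 in iTreg arrays and 4.87 and 4.82 in ex-iTreg arrays. Il4ra fell by 0.33 ± 0.07, but its other probe sets were not called, at 0.15 and 0.02 (adjusted p = 0.179 and 0.933, limma). The lists share members, Il21 standing in both the Th17 and the follicular helper list.

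**Figure D5:**
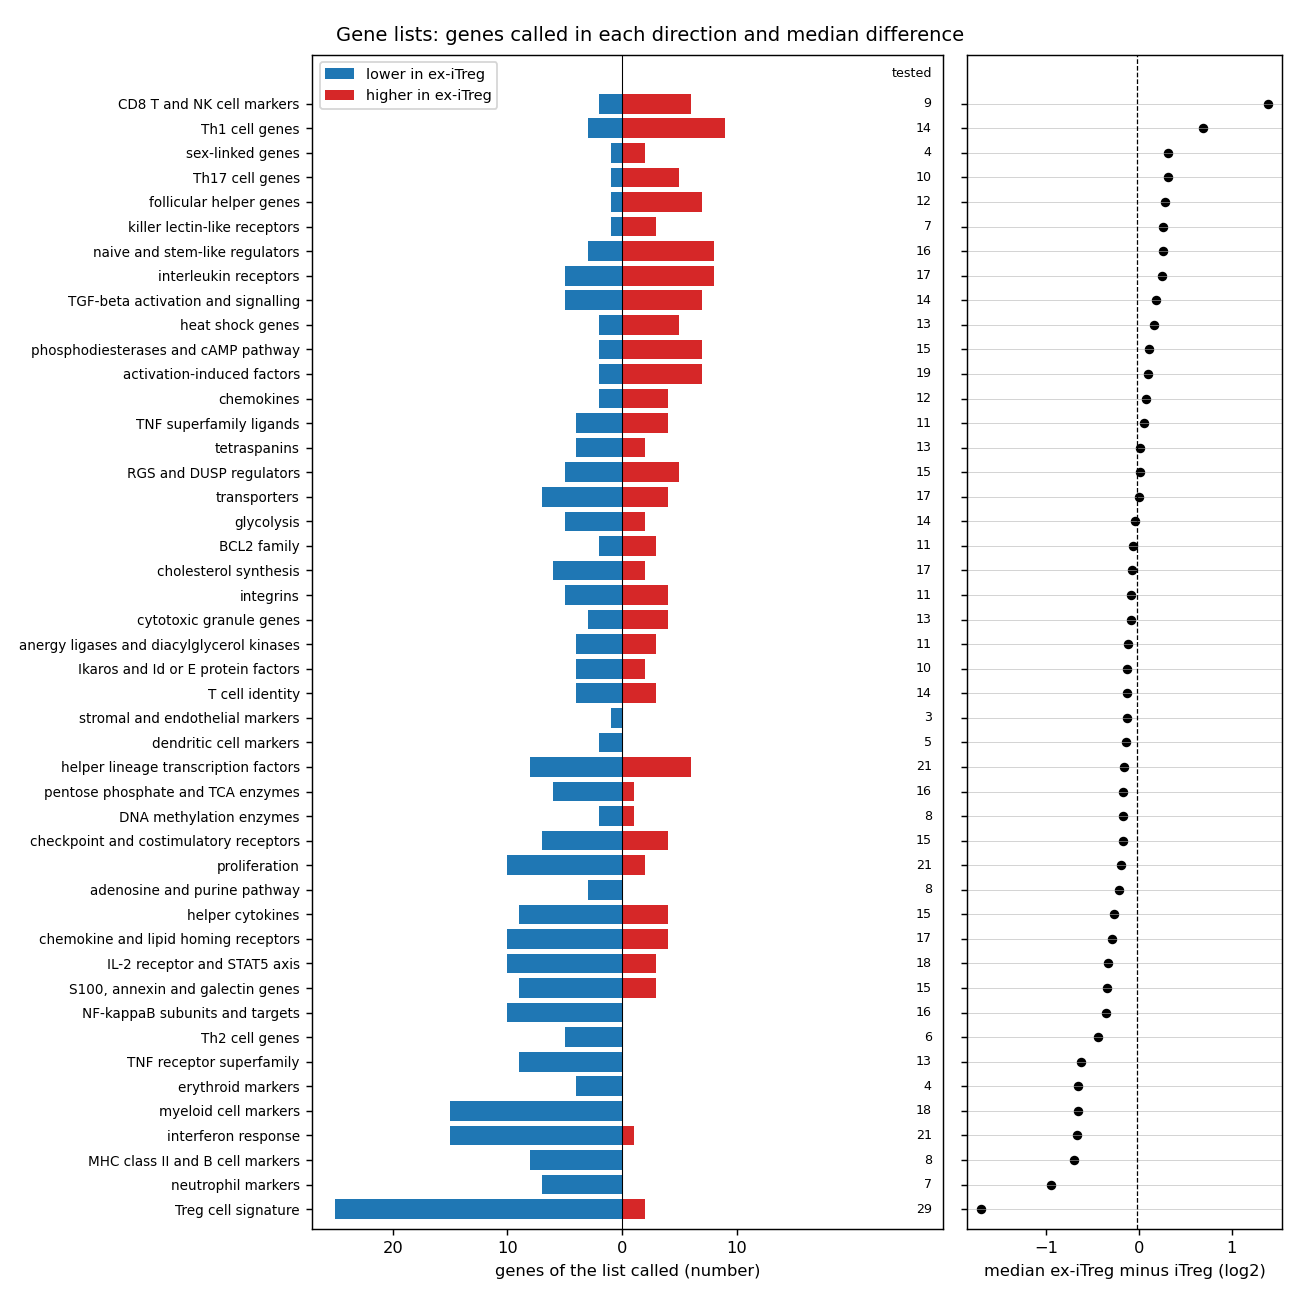
For each of 46 gene lists, the number of genes called lower (blue, to the left) and higher (red, to the right) in ex-iTreg arrays, with the number tested beside the bars, and on the right the median difference (log2). The dashed line is the median of all tested genes, -0.02. The Treg cell signature has the lowest median, -1.69, and the CD8 T and NK cell markers the highest, 1.39.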

How the data were processed

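RNA of the sorted pools was hybridised to Affymetrix Mouse430_2 arrays, 2 for each of 3 populations. The authors deposited log2 values per probe set, and per the submitters' processing notes these come from RMA, whose version is not given in the sources used here. RMA sets all arrays to one distribution, so a global change in RNA cannot be seen, and array levels carry no read depth; the number of arrays limits the precision.

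Of 45037 probe sets other than controls, 23484 reached the overall median of 5.48 in at least 2 of 6 arrays and entered one limma fit of the 3 groups (limma 3.58.1, R 4.3.3), with Benjamini-Hochberg adjustment. Genes were named from probe sets with 1 symbol (34945), 34741 of them matched to RefSeq by Entrez identifier. Named genes were the 15 largest calls in each direction without overlap, the 8 largest with the iTreg or ex-iTreg mean under the filter (given as levels), up to 4 per list, and a set of regulatory T cell genes; further list members say which moved. Members and lists were chosen with earlier results of these data known. The fit was tested on simulated data. Alternatives were other filters, normalisations, variance models and probe set rules, the replicate block, and each array left out.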

Additional observations from a re-analysis of the deposited data

How the results depend on the processing

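Of 191 named genes 184 could be read under all 12 alternatives, and 166 of these kept direction and call in each; the other 7 fell under the filter at the 60th percentile, and 5 of them kept both in the remaining 11. Cd4, not called on the probe set used, was called higher with the mean of its probe sets (0.30, adjusted p = 0.0178, limma). Mbd1, which fell on the probe set used, differed by 0.077 with the mean of its probe sets (adjusted p = 0.546, limma), and Sparc, which was not called, by 0.078 without iTreg pool 2 (adjusted p = 0.714, limma), its values without 1 array running from -0.18 to 0.078; the cause was not tested. Leaving out 1 array, which leaves a lone pool assumed to vary like the others, gave 2283 to 2854 probe sets called higher, against 4160, and 2688 to 3105 called lower, against 4534. The lowest counts were without ex-iTreg pool 2. The medians of 8 of 46 lists changed sign under some alternative.

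The labels share pool numbers across groups. Arrays of the same number showed little shared deviation from their group means, with correlations of -0.04, -0.09 and -0.01. These correlations cannot tell whether pools of the same number came from the same hosts. With the replicate block 3787 probe sets were called higher and 4224 lower. Median centring and quantile normalisation moved the median of all probe sets from 0.00 to 0.03 and 0.01.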
